A study of Homo sapiens with 6 samples.

Results

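Aminoacyl-tRNA synthetases, the enzymes that load each transfer RNA with its amino acid, were followed in the human prostate carcinoma line DU145. Cells were given either 5 µM of OTI-611 or its solvent DMSO and harvested 24 h later, and each group held 3 libraries of total RNA. OTI-611 is known here by its code name, and the study's title speaks of targeting the chromatin remodeller CHD1L. The design has a single line, dose and time. The members were chosen by gene symbol: 39 genes were listed, 23 for cytosolic synthetases and the proteins of their complex and 16 for mitochondrial synthetases. Of these, 38 have a row among the 32692 genes of the deposited table, and VARS2 is not analysed here. The family was picked with the change under OTI-611 already known, so its fold changes and calls are a description and support nothing by themselves.

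Human cells keep separate sets of synthetases for the 2 places where protein is made. The cytosolic enzymes serve the ribosomes of the cytosol, and several of them sit in one large complex held together by the scaffold proteins AIMP1, AIMP2 and EEF1E1. The mitochondrial enzymes are encoded by nuclear genes, named with a final 2, and are imported into the organelle. GARS1 and KARS1 encode the glycine and lysine enzymes of both compartments. Many cytosolic synthetase genes are known targets of ATF4, a transcription factor whose translation rises when amino acids run short or misfolded protein accumulates. ATF4 pairs with C/EBP proteins on a composite DNA element.

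The letters of that element were looked for in the promoters, as a description without a test. The sequence was not used to choose the members, but the element was picked because many of them are known ATF4 targets. RefSeq promoter windows on GRCh38.p14 run from 250 bases before to 50 bases after the transcription start, and 19 of the 23 cytosolic and 14 of the 16 mitochondrial members had one. Searched on both strands, TGATGCAA stood in 6 of the 19 cytosolic windows (31.58%) and in 0 of the 14 mitochondrial windows. It stood in 0.92% of all 27305 promoters and in 0.45% of the 8820 promoters of genes tested here. Both of these sets include the 6 cytosolic windows with a match. The 6 matches are shown with 11 bases on each side, on the strand of the gene, with the match in capitals; TTGCATCA is the same element read on the other strand.
AARS1, alanine, chr16:70289675-70289704, minus strand: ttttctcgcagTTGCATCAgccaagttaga
CARS1, cysteine, chr11:3057407-3057436, minus strand: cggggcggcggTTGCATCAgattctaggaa
IARS1, isoleucine, chr9:92293692-92293721, minus strand: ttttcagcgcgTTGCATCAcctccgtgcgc
MARS1, methionine, chr12:57488053-57488082, plus strand: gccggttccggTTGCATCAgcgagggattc
TARS1, threonine, chr5:33440956-33440985, plus strand: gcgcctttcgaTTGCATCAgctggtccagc
NARS1, asparagine, chr18:57621804-57621833, minus strand: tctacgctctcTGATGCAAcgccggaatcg

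As printed, 5 of the 6 genes read the element as TTGCATCA while NARS1 reads it as TGATGCAA. On the strand that reads TTGCATCA, a g stands directly before the 8 letters in all but TARS1. On that strand a g also stands directly after them in all but IARS1. The rest of the flanks is not the same in the 6 genes. In 5 of the 6 the match began within 20 bases of the start: at -13 in IARS1, -4 in MARS1, -2 in CARS1, 3 in TARS1 and 15 in NARS1. In AARS1 it began at -187. Among the 40 promoters of tested genes that hold these letters, 10 (25.0%) hold them within 20 bases of the start. The 6 cytosolic members are among these 40, and 5 of them are among these 10. The looser letters TGATGNAA, which include TGATGCAA, added a single member, the mitochondrial YARS2 at -197, and stood in 1.55% of the promoters of tested genes. A different element, TGACGTCA (CRE), was found only in AIMP2 among these windows, against 3.41% of the promoters of tested genes. These are matches of letters and not measured binding, and a window without them says nothing of sites elsewhere in the gene.

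**Figure D1:**
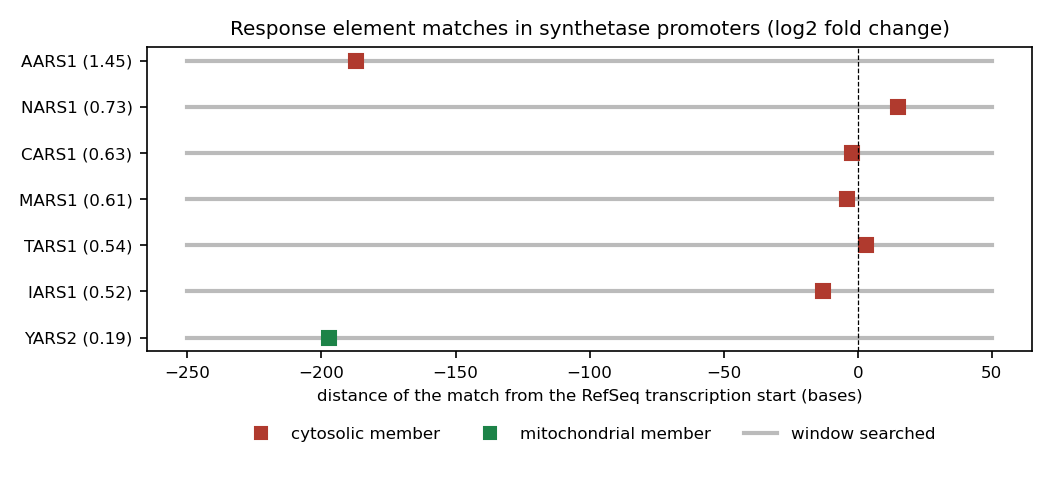
Distance in bases from the RefSeq transcription start to the first base of each TGATGNAA match (squares) in the 7 member promoters that hold one; grey bars are the windows searched and the number beside each gene is its log2 fold change under OTI-611. In 5 cytosolic genes the square lies within 20 bases of the start, and those of AARS1 and YARS2 lie at -187 and -197.

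All 6 cytosolic genes with TGATGCAA were among those that rose with OTI-611. Of the 14 cytosolic members with a promoter window that rose, 6 held the letters, and of the 5 that fell, 0 did. The rises and falls are those of the contrast that chose the family. Whether so few windows part by chance was not tested. Over the whole table, the letters stood in 0.81% of the promoters of genes that rose and in 0.30% of those of genes that fell. The 21 promoters behind the first share include those of the 6 cytosolic genes. The strong risers SARS1 and GARS1 had no match in their windows. LARS1, TARS3, VARS1, YARS1 and AARS2 had no entry.

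Levels are given as RPKM, read counts scaled to gene length and library size, so that genes can be compared with each other. In 5 libraries the values behave as RPKM, although the file names no unit. The column of DMSO 1 has whole numbers only and is read as RPKM without decimals. Its value was under the average of the other DMSO libraries in 26 of 38 members, and the median difference over the 38 was -0.54 RPKM. The first principal component (82.3% of variance) parted the groups, and the second (8.84%) set DMSO 1 apart. Steps between low values give estimated depths of 30.7 to 37.8 M reads for the other libraries, which puts the 36 tested members between about 100 reads (PARS2) and 63250 reads (TARS1) in DMSO 2. Of the epithelial markers, KRT18 stood at 94.7 to 105 RPKM and KRT19 at 240 to 289 RPKM over all 6 libraries. KRT8 stood at 147, 153 and 146 RPKM with DMSO and at 104, 103 and 109 with OTI-611, and CDH1 at 4, 4.39 and 4.80 RPKM with DMSO and at 1.45, 1.46 and 1.71 with OTI-611. The groups did not overlap in KRT8 and CDH1, as in 70.2% of all genes tested. They overlapped in KRT18, KRT19 and EPCAM, which stood at 13 to 15.2 RPKM over all 6 libraries. The leukocyte gene PTPRC reached 0.0086 at most and the fibroblast gene COL1A1 0.735. The mesenchymal gene VIM stood at 379 to 385 RPKM with DMSO and at 470 to 480 with OTI-611, and its groups did not overlap either. The part of these marker changes in the results was not tested. "Rose" and "fell" mark genes with an adjusted p under 0.05 in limma, fitted over all 11978 genes with a mean of at least 1 RPKM, and log2 fold changes are of RPKM + 1. Whether each library had its own culture is not stated, and the p-values then reflect the spread among these 6 libraries, which may be technical.

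Most cytosolic members rose and most mitochondrial ones fell or were not called. Of 22 cytosolic members tested, 16 rose and 6 fell; their median log2 fold change was 0.53. Of 14 mitochondrial members tested, 3 rose, 6 fell and 5 were not called, with a median of -0.06 that turned to 0.0005 when libraries were rescaled to the median log ratio. Over all genes tested 27.8% rose and 37.3% fell (65.2% either way), with a median of -0.05, and nothing is read from the difference since the family was chosen on this contrast. In every called member the OTI-611 libraries lay entirely on one side of the DMSO libraries, as they did in 70.2% of all genes (30.5% above and 39.7% below). A rise of at least 0.5 on the log2 scale, seen in 8.28% of all genes, was found in 12 cytosolic members and in 1 mitochondrial member. Without DMSO 1 the counts were 15 higher and 6 lower for the cytosolic members and 3 higher and 6 lower for the mitochondrial members, against 26.3% higher and 42.4% lower overall (68.7% either way); the medians were then 0.49 and -0.10.

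**Figure D2:**
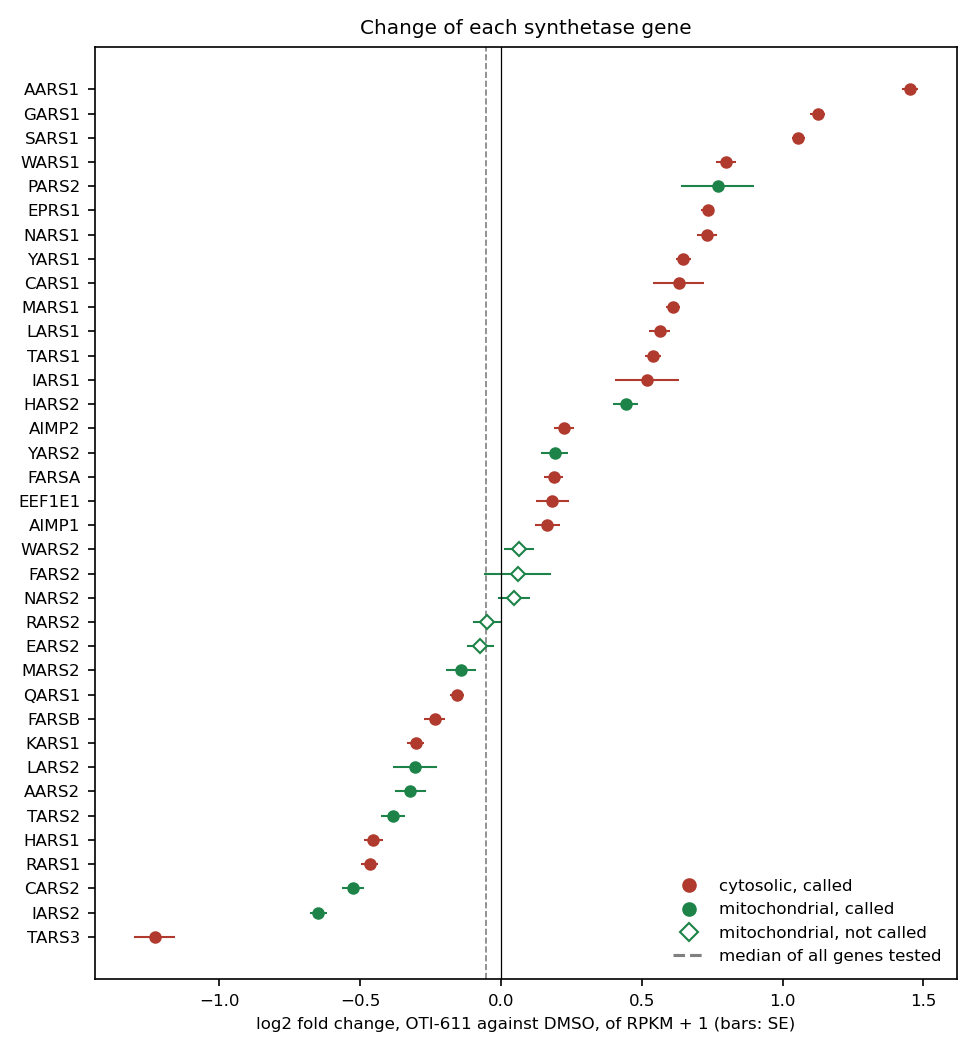
Log2 fold change of RPKM + 1, OTI-611 against DMSO, for the 36 tested members (points, with SE bars; cytosolic red, mitochondrial green, open diamonds not called; the dashed line is the median of all genes tested). AARS1, GARS1 and SARS1 lead, TARS3 lies lowest, and PARS2 is the only mitochondrial gene above 0.5.

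AARS1, the alanine enzyme (ENSG00000090861), rose most among the members. It stood at 132, 131 and 140 RPKM with DMSO and at 369, 365 and 372 with OTI-611. The groups lay far apart, with a ratio of means of 2.75 and a log2 fold change of 1.45 ± 0.03 (SE, n = 3 per group), which ranks 56 of the 11978 genes. GARS1, the glycine enzyme of both compartments, stood at 66, 63.6 and 67.2 RPKM with DMSO and at 144, 144 and 145 with OTI-611, a log2 fold change of 1.13. SARS1, the serine enzyme, stood at 141, 139 and 142 RPKM with DMSO and at 295, 289 and 296 with OTI-611, a log2 fold change of 1.06. Both slightly more than doubled, and these 3 were the only members to rise by at least 1 on the log2 scale of RPKM + 1, as 1.91% of all genes did. On RPKM itself the low mitochondrial gene PARS2 had a ratio of means of 2.19, which the added 1 lowers on the log2 scale. Without the whole-number library DMSO 1 that ratio was 1.92.

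A second group of cytosolic enzymes rose by 0.52 to 0.80 on the log2 scale. WARS1, the tryptophan enzyme, averaged 79.5 ± 1.4 RPKM in the DMSO libraries and 139 ± 6.8 in the treated ones (mean ± SD of 3 libraries each), a ratio of 1.75. EPRS1, which carries the glutamate and proline activities on one chain, averaged 90.3 ± 0.71 RPKM with DMSO and 151 ± 1.1 with OTI-611, a ratio of 1.67. NARS1, for asparagine, averaged 74.1 ± 3.6 RPKM with DMSO and 124 ± 2.3 with OTI-611, a ratio of 1.67, and it holds the element 15 bases past its start. YARS1 for tyrosine (0.65), MARS1 for methionine (0.61) and LARS1 for leucine (0.56) followed on the log2 scale. In each of these genes every OTI-611 library lay above every DMSO library.

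TARS1, the threonine enzyme, was the most abundant member per length in DMSO. It stood at 373, 360 and 378 RPKM with DMSO and at 541, 526 and 550 with OTI-611, a ratio of 1.45. Its near relative TARS3, a second cytosolic threonine enzyme, went the opposite way and had the largest fall of any member. TARS3 stood at 7, 7.66 and 7.88 RPKM with DMSO and at 2.79, 2.72 and 2.38 with OTI-611, a log2 fold change of -1.23 ± 0.07 (SE). The ratio of TARS1 to TARS3 went from 49.4 ± 3.4 to 206 ± 22 (SD, n = 3 per group).

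CARS1, the cysteine enzyme, and IARS1, the isoleucine enzyme, were listed at much lower levels than the other cytosolic enzymes that rose. CARS1 stood at 3, 3.68 and 4.10 RPKM with DMSO and at 6.04, 5.84 and 6.38 with OTI-611, a log2 fold change of 0.63. IARS1 stood at 2, 2.40 and 2.68 RPKM with DMSO and at 3.18, 4.07 and 4.23 with OTI-611, a log2 fold change of 0.52. The groups did not overlap in either gene, and both carry the element next to their start. The steps of the whole numbers in DMSO 1 are coarse at these levels; without DMSO 1 the limma adjusted p was 0.00025 for CARS1 and 0.0082 for IARS1.

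**Figure D3:**
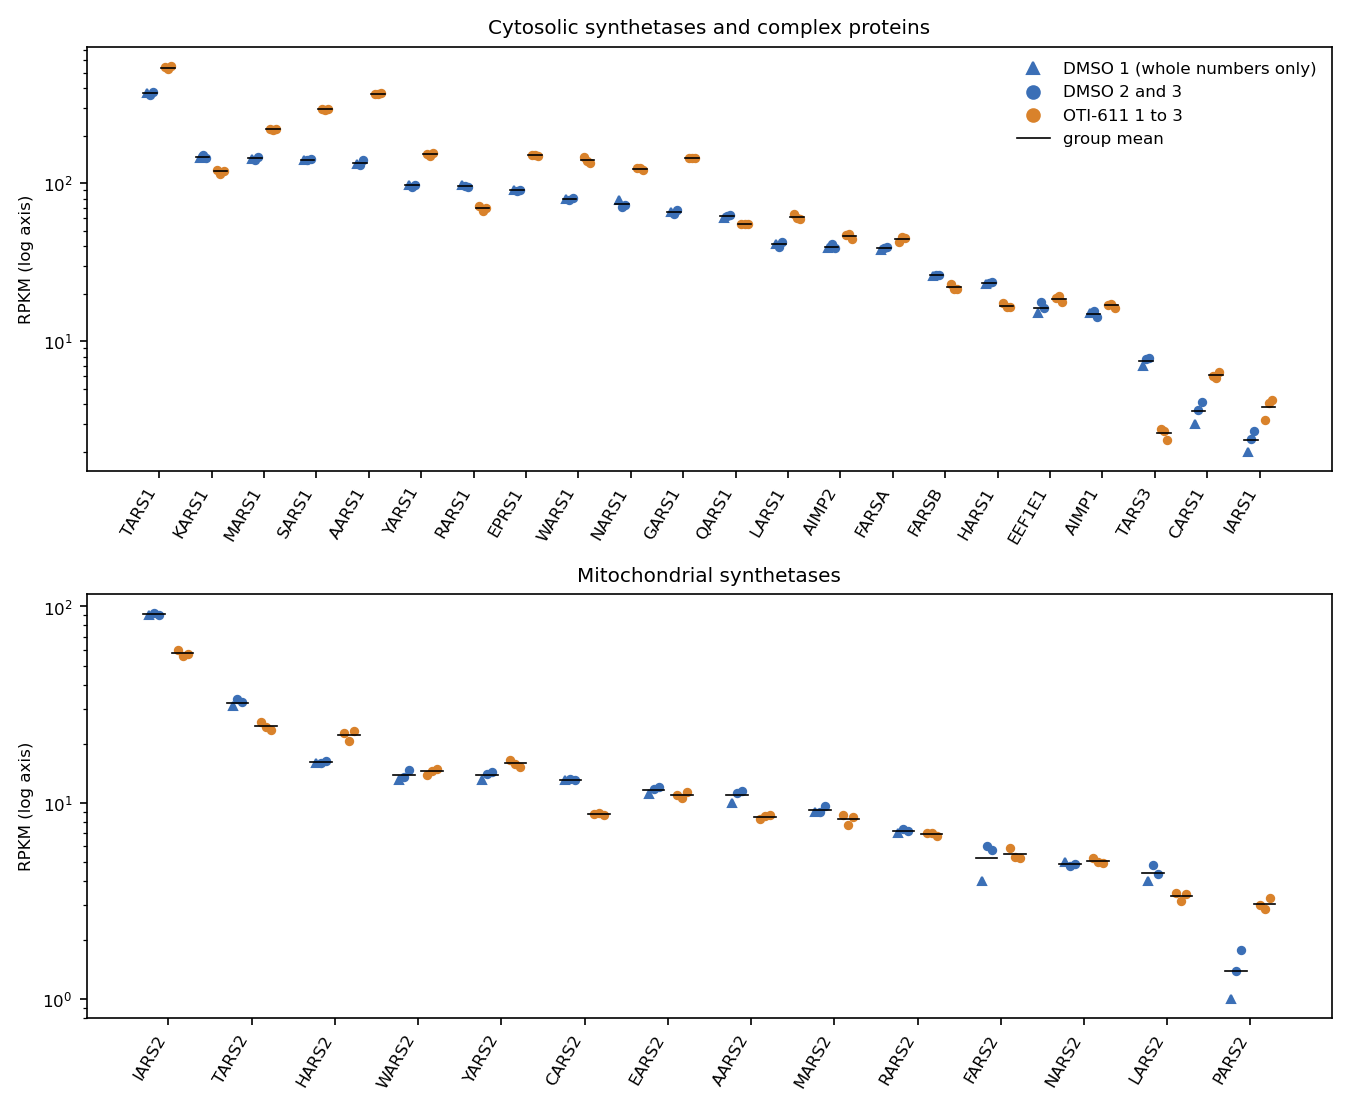
RPKM of each tested member in every library on a log axis, ordered by the DMSO mean (blue DMSO, with triangles for the whole-number library DMSO 1; orange OTI-611; bars are group means). The cytosolic enzymes AARS1, SARS1 and GARS1 show the widest upward gaps, TARS3 and IARS2 open downward, and 5 mitochondrial genes overlap between groups.

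MARS1 shares ground with a gene that rose much further. In GENCODE v29 on GRCh38 it lies on the plus strand of chromosome 12 from 57475445 to 57517569, and its end overlaps exons of DDIT3, the stress factor CHOP, on the opposite strand. The shared 355 bases are 5.05% of the exon bases of MARS1, of which 13.3% in all lie in exons of other genes. They are 27.2% of the exon bases of DDIT3, which averaged 17.1 RPKM with DMSO and 169 with OTI-611. Whether reads of MARS1 were counted for DDIT3 was not tested. MARS1 stood at 142, 141 and 148 RPKM with DMSO and at 222, 218 and 219 with OTI-611. If the rise in DDIT3 density were counted on all the shared bases it would equal 10.1% of the rise of MARS1. Whether the authors' counting used the strand is not given in the sources used here.

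The cytosolic enzymes that fell were those for arginine, histidine, lysine and glutamine, besides TARS3 and a subunit of the phenylalanine enzyme. RARS1, for arginine, stood at 97, 96.7 and 94.4 RPKM with DMSO and at 71.5, 67.0 and 69.3 with OTI-611, a log2 fold change of -0.47. KARS1, for lysine in both compartments, stood at 145, 151 and 145 RPKM with DMSO and at 122, 115 and 120 with OTI-611, a log2 fold change of -0.30. Both were below DMSO in every OTI-611 library. QARS1, for glutamine, fell least. It stood at 60, 62.3 and 62.6 RPKM with DMSO and at 55.0, 55.4 and 55.2 with OTI-611, a log2 fold change of -0.16, and its call was lost when libraries were rescaled to the median log ratio (limma adjusted p = 0.069). None of RARS1, KARS1, QARS1, HARS1 and FARSB had a TGATGNAA match in its window.

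The phenylalanine enzyme is built from an alpha subunit, FARSA, and a beta subunit, FARSB, and their messages moved apart. FARSA stood at 38, 38.99 and 39.7 RPKM with DMSO and at 42.7, 45.9 and 44.7 with OTI-611, a log2 fold change of 0.19. FARSB stood at 26, 26.1 and 26.2 RPKM with DMSO and at 23.2, 21.5 and 21.4 with OTI-611, a log2 fold change of -0.24. The ratio of FARSA to FARSB was 1.46, 1.49 and 1.51 with DMSO and 1.84, 2.13 and 2.09 with OTI-611.

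Histidine was the only amino acid of the pairs described here for which the cytosolic gene fell and the mitochondrial gene rose. HARS1, the cytosolic enzyme, stood at 23, 23.3 and 23.6 RPKM with DMSO and at 17.4, 16.4 and 16.5 with OTI-611, a log2 fold change of -0.45. HARS2, the mitochondrial enzyme, stood at 16, 15.8 and 16.2 RPKM with DMSO and at 22.6, 20.7 and 23.3 with OTI-611, a log2 fold change of 0.44. The order of the 2 genes was thus reversed, with a ratio of HARS1 to HARS2 of 1.45 ± 0.02 in DMSO and 0.758 ± 0.044 in OTI-611 (SD, n = 3 per group). They are read away from each other on chromosome 5, with RefSeq starts 85 bases apart, at 140691370 for HARS1 on the minus strand and 140691455 for HARS2 on the plus strand. In GENCODE v29 the gene models overlap, and exons of HARS2 cover 5.56% of the exon bases of HARS1 and exons of HARS1 cover 11.7% of those of HARS2.

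Enzymes of the complex were found both among the members that rose and among those that fell. The 7 tested enzymes of the complex included 4 called higher and 3 called lower (median 0.52 on the log2 scale). The 12 tested enzymes outside it included 9 called higher and 3 called lower (median 0.64). Beside these stand 27.8% called higher and 37.3% called lower over all genes tested (median -0.05). The family was chosen on this contrast, so nothing is read from these differences. The scaffold proteins AIMP2 (0.22), EEF1E1 (0.18) and AIMP1 (0.16) all rose, less than most enzymes. AIMP2 stood at 39, 41.0 and 38.7 RPKM with DMSO and at 47.1, 47.6 and 44.5 with OTI-611. EEF1E1 no longer passed when DMSO 1 (limma adjusted p = 0.061) or OTI-611 2 (0.066) was left out, with no filter on low values (0.083), with decimals dropped in all libraries (0.087) and with no mean-variance trend (0.0501). The synthetases also fall into 2 unrelated structural classes: 6 of 8 cytosolic class I enzymes and 6 of 10 of class II rose, beside 27.8% over all genes. EPRS1, which has a domain of each, is left out. Neither the split by complex nor the split by class was tested.

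Among mitochondrial members IARS2, the isoleucine enzyme, was the most abundant per length and fell most. It stood at 90, 92.3 and 90.9 RPKM with DMSO and at 59.8, 56.1 and 57.3 with OTI-611, a log2 fold change of -0.65 ± 0.03 (SE). CARS2, for cysteine, stood at 13, 13.2 and 13.0 RPKM with DMSO and at 8.79, 8.83 and 8.66 with OTI-611, a log2 fold change of -0.52. TARS2 for threonine (-0.38), AARS2 for alanine (-0.32) and LARS2 for leucine (-0.30) also fell on that scale, each while its cytosolic counterpart rose. MARS2, for methionine, stood at 9, 8.96 and 9.66 RPKM with DMSO and at 8.59, 7.72 and 8.46 with OTI-611, a log2 fold change of -0.14 with a limma adjusted p of 0.045. Leaving out a library ended that call for DMSO 2 (limma adjusted p = 0.062), DMSO 3 (0.15), OTI-611 2 (0.17) and OTI-611 3 (0.063). It was also lost after quantile normalization (0.28), after rescaling (0.22), with no filter (0.11), with decimals dropped (0.13) and with no mean-variance trend (0.056).

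The mitochondrial genes that rose were PARS2, HARS2 and YARS2. PARS2, for proline, stood at 1, 1.38 and 1.78 RPKM with DMSO and at 3.00, 2.85 and 3.26 with OTI-611, a log2 fold change of 0.77 ± 0.13 (SE) that rests on about 100 reads in DMSO 2. Without DMSO 1 the log2 fold change of PARS2 was 0.65. YARS2, for tyrosine, stood at 13, 14.0 and 14.3 RPKM with DMSO and at 16.4, 15.8 and 15.3 with OTI-611, a log2 fold change of 0.19. The groups did not overlap in either gene. EARS2 (-0.07), RARS2 (-0.05), NARS2 (0.05), FARS2 (0.06) and WARS2 (0.06) were not called and their groups overlapped. WARS2 was called higher after rescaling to the median log ratio (limma adjusted p = 0.041).

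For 15 pairs of a cytosolic and a mitochondrial gene for the same amino acid, the ratio of the 2 was taken within each library, which removes differences in library scaling. The ratio was higher in all OTI-611 libraries than in all DMSO libraries in 10 pairs, lower in 3 and overlapping in 2. Beside this, 70.2% of all single genes tested separated the groups, and no such share was taken over ratios of other genes. The pairs are built from members chosen on this contrast. An exact two-sided permutation test over 3 against 3 libraries cannot go below p = 0.1, and the 13 separated pairs all had that value (Benjamini-Hochberg adjusted p = 0.115 over the 15 pairs). FARSA and FARSB share FARS2, and EPRS1 appears with both EARS2 and PARS2.

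Alanine had the widest change: AARS1 over AARS2 was 13.2, 11.7 and 12.3 with DMSO and 44.8, 42.8 and 42.9 with OTI-611. Isoleucine (2.55-fold), cysteine (2.54-fold), leucine (1.95-fold), threonine (1.92-fold) and glutamate (1.77-fold) followed among the ratios that were higher. The ratio fell for histidine, for arginine (from 13.4 ± 0.42 to 10.02 ± 0.41, SD, n = 3 per group) and for FARSB over FARS2. The ratios of FARSA to FARS2 and of EPRS1 to PARS2 overlapped, and in both DMSO 1 gave the highest DMSO ratio; without DMSO 1 the ratio was higher in 11 pairs and lower in 3.

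**Figure D4:**
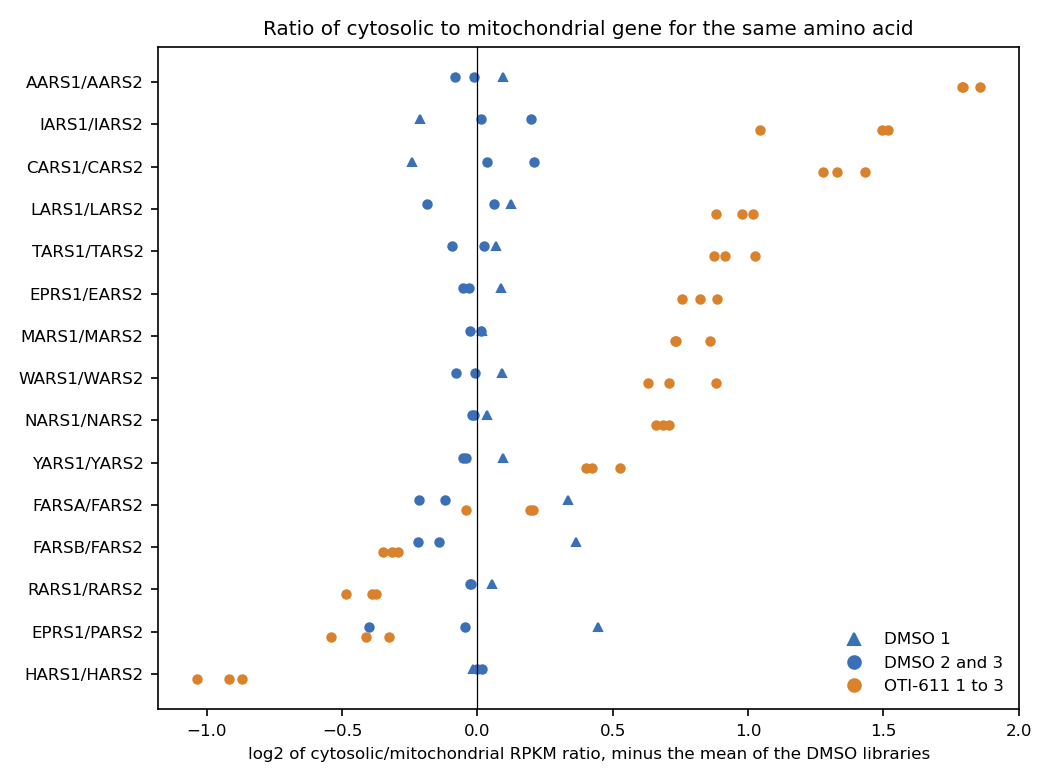
Log2 ratio of cytosolic to mitochondrial RPKM in each library, relative to the mean of the DMSO libraries, for 15 pairs (blue DMSO, triangle DMSO 1; orange OTI-611). In 10 pairs the orange points lie to the right of all blue points, in 3 to the left, and for FARSA/FARS2 and EPRS1/PARS2 they overlap.

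Summed over the 23 cytosolic members in the table, the level was 1712, 1696 and 1735 RPKM with DMSO and 2640, 2583 and 2621 with OTI-611. Summed over the 15 mitochondrial members it was 227, 239 and 238 RPKM with DMSO and 199, 190 and 195 with OTI-611. The cytosolic sum was thus 7.31 ± 0.22 times the mitochondrial sum in DMSO and 13.4 ± 0.17 times in OTI-611 (SD, n = 3 per group). The sums weigh abundant genes most, TARS1 and IARS2 in particular. The mean of the mitochondrial sum went from 235 RPKM with DMSO to 195 with OTI-611, and IARS2 alone went from 91.1 to 57.7. The values are shares of a library, so a change in RNA per cell would not be seen in them.

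VARS1 and SARS2 were below the minimum for testing. VARS1, for valine in the cytosol, was listed at 0, 0.658 and 0.817 RPKM with DMSO and at 0.802, 0.690 and 0.753 with OTI-611, and the groups overlapped. SARS2, for serine in mitochondria, was listed at 0 in 5 libraries and at 0.0139 RPKM in OTI-611 1. In GENCODE v29, 57.0% of the exon bases of SARS2 also belong to exons of other genes, and 0% of those of VARS1; a share above 50% is found in 1.39% of tested genes.

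Among 18 other tested genes of transfer RNA charging and delivery, 5 rose, 3 fell and 10 were not called, beside 27.8% higher and 37.3% lower over all genes. The median of their log2 fold changes was -0.01, beside -0.05 over all genes. EEF1A1, the elongation factor that carries charged transfer RNA to the ribosome, rose by 0.23 on the log2 scale (call lost with no filter on low values, limma adjusted p = 0.094), and its relative EEF1A2 fell by 0.41. DTD1, which removes D-amino acids from transfer RNA, rose by 0.33, and PTRH2, a peptidyl-tRNA hydrolase of mitochondria, fell by 0.26. The rises were 3 without OTI-611 1, and the falls were 5 without DMSO 1.

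Of 26 tested genes of the amino acid response, 18 rose, 6 fell and 2 were not called, with a median of 0.65, beside 27.8% higher, 37.3% lower and a median of -0.05 over all genes. These values come from the same libraries and are not independent of those of the synthetases. TRIB3 (2.52), SLC3A2 (1.68), CEBPG (1.19), DDIT3 (3.24), PHGDH (0.89) and PYCR1 (0.78) rose on the log2 scale. CEBPG encodes a C/EBP partner of ATF4. ATF4 itself stood at 280, 276 and 292 RPKM with DMSO and at 246, 253 and 252 with OTI-611, a log2 fold change of -0.17, and that call was lost after rescaling to the median log ratio (limma adjusted p = 0.071). ATF5 (-0.79), ALDH18A1 (-0.39), the eIF2 kinase gene EIF2AK4 (-0.33), SLC7A11 (-0.30) and VLDLR (-0.29) also fell; the call for VLDLR was lost with decimals dropped in all libraries (limma adjusted p = 0.059). Of the 21 response genes with a promoter window, CHAC1, ASNS, SLC3A2 and ATF3 held the looser TGATGNAA, and all 4 rose. The stricter TGATGCAA stood in 1 of the 21 (4.76%). Over the promoters of all genes that rose, the shares were 2.36% for TGATGNAA and 0.81% for TGATGCAA. These shares count the synthetases and response genes that rose.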

How the data were processed

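Total RNA of DU145 cells went through Geo-seq reverse transcription with amplification, and libraries were made by transposition, per the labels' protocols. The submitters' processing notes list the aligner TopHat2 2.0.9, the quantifiers HTSeq and Cufflinks 2.1.1, and mm10, a mouse build, whereas all 32692 gene IDs are human; the build and annotation used are therefore not given in the sources used here. The authors deposited 5 columns taken here as RPKM (FPKM cannot be told apart). The column DMSO 1, which the authors deposited as whole numbers, was recorded as a score because its unit could not be checked, and entered every fit on the RPKM scale. Depth was estimated from steps of low values with GENCODE v29 exon lengths: 70.4% to 71.4% of those values were whole reads within 0.05. No depth was obtained for DMSO 1. Amplified reads without molecular identifiers are not molecules.

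Log2(value + 1) of genes with a mean of at least 1 was fitted with limma 3.58.1 in R 4.3.3 (group as the only term, with a mean-variance trend; two-sided p adjusted by Benjamini-Hochberg over all tested genes; threshold 0.05), tested on simulated data. The design named a count test in case of counts, which did not apply. Members and lists were chosen with earlier results of these data known. Named are all members and, of the other lists, up to 6 genes with the smallest p, those that fell and ATF4, apart from some that are not reported here; CHAC1, ASNS, ATF3, SESN2, TSFM and EEF1D were named after their values were seen. Promoter sequences are from RefSeq (GRCh38.p14), and the motif search, with no test, was a description. Alternatives were other pseudocounts, filters and scalings, dropped decimals in all libraries, no trend, a replicate block and each library left out.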

Additional observations from a re-analysis of the deposited data

How the results depend on the processing

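The 16 rises and 6 falls among cytosolic members became 15 to 16 and 6 when a library was left out, and the 3 rises and 6 falls among mitochondrial members became 3 and 5 to 6. The median log2 fold change of cytosolic members, 0.53, was 0.56 with a pseudocount of 0.1 and 0.55 with 0.5, 0.38 with a minimum mean of 5, 0.55 after quantile normalization, 0.59 after rescaling to the median log ratio, 0.55 with decimals dropped in all libraries and 0.49 to 0.57 with a library left out. The mitochondrial median was -0.0148 after quantile normalization, 0.0005 after rescaling and -0.10 to -0.05 with a library left out. The difference between the medians, 0.59, was 0.46 with a minimum mean of 5, which drops CARS1, IARS1, LARS2, NARS2 and PARS2, and 0.56 to 0.62 with a library left out. The log2 fold change of FARS2, not called, ranged from -0.0936 (without DMSO 1) to 0.1505 with a library left out, and RARS2, not called, at 0.0054 after quantile normalization and 0.0113 after rescaling. The rises among other charging and delivery genes were 3 with no filter on low values, 3 with a minimum mean of 5, 3 with decimals dropped in all libraries and 3 to 5 with a library left out, and the falls were 3 to 5. The counts for the synthetases and for the amino acid response genes stayed within 1.5 times under every alternative run. The pair ratios were not fitted with other pseudocounts or the block, which leave them as they are. The cause was not tested. With the replicate number as a block, the cytosolic counts stayed at 16 and 6 and the mitochondrial counts at 3 and 6, and the rises among other charging and delivery genes were 4. Deviations of same-numbered libraries correlated at 0.02, 0.0004 and -0.06. These values show no pairing by number but cannot exclude one, since DMSO 1 lacks decimals and each group has only 3 libraries. Precision is limited for low members such as PARS2, FARS2, IARS1 and CARS1, whose levels are coarse in DMSO 1.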

Other observations

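EPRS1 and IARS2 lie on chromosome 1, read away from each other with 47.4 kb between them in GENCODE v29. Genes lying between them were not looked for. They went opposite ways, EPRS1 from 90.3 to 151 RPKM and IARS2 from 91.1 to 57.7. With DMSO they stood at nearly the same level, and with OTI-611 every EPRS1 value lay above every IARS2 value.

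Some genes of the lists are listed at low levels. TSFM, a mitochondrial elongation factor, was listed at 0, 0.141 and 0.158 RPKM with DMSO and at 0.286, 0.211 and 0.251 with OTI-611, and 28.5% of its exon bases in GENCODE v29 also belong to other genes. EEF1D, a subunit of the exchange factor for EEF1A1, stood at 1, 1.90 and 1.82 RPKM with DMSO and at 1.20, 1.39 and 1.08 with OTI-611, with 34.0% of its exon bases shared. It was not called with all 6 libraries (limma adjusted p = 0.32) and was called lower without DMSO 1 (log2 fold change -0.37, limma adjusted p = 0.0095). SESN2, a target of the amino acid response, was listed at no more than 0.0188 RPKM in any library, with 0% shared. Whether shared exon bases bear on these levels was not tested.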
